A study of Mus musculus with 8 samples.

Results

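The enzymes and the chaperone that hydroxylate and crosslink collagen were examined in cultured skin fibroblasts, taken from Nd2-mutant mice and their controls. The group was named as 10 genes, P4ha1, P4ha2, P4ha3, Plod1, Plod2, Plod3, Lox, Loxl1, Loxl2 and Serpinh1, and every probe annotated with one of these symbols was taken. Of the 10 genes, 9 had a probe, 1 each, among the 25697 probes and 18138 gene symbols of the array, and Loxl2 had none under that symbol. All 9 probes were detected on 8 of 8 arrays and were among the 10414 tested probes. The group was proposed because P4ha3 had the smallest p of an earlier comparison of the strains, so that the strain differences below are given as descriptions, without a test.

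RNA was measured on 8 Illumina MouseRef-8 arrays, 1 per mouse, with 4 mice of each strain, 2 males and 2 females, all 12 months of age. Both strains are conplastic, which means that they carry the nuclear genome of C57BL/6J with the mitochondrial genome of a donor strain. Nd2-mutant mice (C57BL/6J-mtALR/LtJ) carry the mitochondria of ALR/LtJ, with an amino acid exchange in Nd2, a subunit of respiratory complex I, and the control mice (C57BL/6J-mtAKR/J) those of AKR/J, so that the controls also carry donor mitochondria. Cells were released from skin with Liberase, grown in DMEM with FCS to the first passage and left untreated. No probe for Nd2 itself was found, so that the mutation could not be checked on the arrays. Each array holds the RNA of 1 mouse, so that differences between mice and between cultures cannot be told apart.

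Collagen chains are modified in the endoplasmic reticulum before they are secreted. Prolyl 4-hydroxylases make the hydroxyproline that holds the triple helix together at body temperature, lysyl hydroxylases make the hydroxylysine that carries sugars and stable crosslinks, and the chaperone Hsp47, encoded by Serpinh1, binds the folded procollagen. Outside the cell, lysyl oxidases turn lysine and hydroxylysine into the aldehydes from which crosslinks form. The hydroxylases use oxygen, iron, ascorbate and 2-oxoglutarate, the last an intermediate of the mitochondrial citric acid cycle, and fibroblasts are the main collagen producers of the skin.

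The labelled cell type was checked against marker genes. Of the 9 fibroblast markers on the array, 9 were detected on all 8 arrays, and their summed intensity was between 37146 and 43416 in Nd2-mutant and between 30749 and 46219 in control mice. Markers of other cell types were not all absent. The sum of 7 keratinocyte markers was between 199 and 1169 in Nd2-mutant and between 324 and 960.1 in control mice. Among them Krt14 and Krt10 were detected on all 8 arrays and Krt1 on no array. The highest values of Krt14, 1007 and 812, were in Nd2-mutant mouse 32 and control mouse 15. The sum of 6 smooth muscle and pericyte markers was between 569 and 1077 in Nd2-mutant and between 663 and 1626 in control mice. Pdgfrb, which fibroblasts also express, Myh11, Des and Cspg4 were detected on all 8 arrays, and Cnn1 and Rgs5 on no array. For 6 skeletal muscle markers the sum was between 319 and 991 against 805 and 1285. Acta1, between 242 and 1198, and Mylpf were detected on all 8 arrays, and Ckm and Myod1 on no array. For 7 endothelial markers the sum was between 128 and 241 against 206 and 538. For 10 macrophage markers it was between 264 and 1614 against 214 and 559, highest in Nd2-mutant mouse 35. The 4 Schwann cell markers summed to between 40.7 and 69.1 against 52.9 and 156, while 6 melanocyte and 5 adipocyte markers summed to less than 30 on every array. The part of these cells in the values below was not tested. Fewer cells of a type and less RNA per cell cannot be told apart in such cultures. Between 41.5% and 44.2% of all probes were detected per array, and the array of control mouse 15 stood apart, with a mean correlation of 0.934 with the others, whose own means were between 0.963 and 0.974.

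P4ha3, 1 of the 3 catalytic subunits of prolyl 4-hydroxylase, was higher in Nd2-mutant than in control fibroblasts, and the other 2 were not. Its intensity (ILMN_2644175, chromosome 7) was 155 and 148 in the male Nd2-mutant mice 28 and 32 and 155 and 157 in the females 34 and 35, as compared with 66.7 and 90.8 in the male control mice 16 and 17 and 84.5 and 85.4 in the females 15 and 37. Every Nd2-mutant mouse was above every control mouse, with a gap of 57.4 between the nearest values, and the 4 Nd2-mutant mice were nearly equal. The coefficient of variation was 2.47% in Nd2-mutant and 12.8% in control mice. Choosing a gene by its smallest p favours a small spread within strains, so that nothing is read from this spread. On the scale of log2(intensity + 16), the difference was 0.80 (standard error 0.13), and it was 0.83 in males and 0.77 in females. It was between 0.72 and 0.85 without each mouse in turn, 0.82 without control mouse 15 and 0.79 without Nd2-mutant mouse 35. With 50 added before the log2 it was 0.63, since a larger added value shrinks a difference between low intensities. In the 2 strains, 455 of the 10414 tested probes, or 4.37%, did not overlap (2.24% higher and 2.13% lower in Nd2-mutant mice), and P4ha3 was the only 1 of the 9 members among them. With limma, 0% of the tested probes passed at an adjusted p under 0.05 between the strains and 7.63% at an unadjusted one, against 0.0096% and 6.7% with the methods' t-test. As P4ha3 was chosen by this contrast, nothing is read from these shares.

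P4ha1, the catalytic subunit that most cells express, had overlapping intensities. They were 102, 125, 107 and 84.6 in Nd2-mutant mice 28, 32, 34 and 35 (ILMN_1234565, chromosome 10) and 121, 216, 129 and 82.7 in control mice 15, 16, 17 and 37. The log2 difference of -0.29 (standard error 0.24) was -0.06 without control mouse 16, the highest of the 8, and -0.47 without control mouse 37, the lowest, and with array weights it was -0.11. P4ha2, the third of these subunits, had intensities of 851, 1207, 1020.0 and 940.1 in the Nd2-mutant and 1502, 1250.0, 1336 and 788 in the control mice, in the same order (ILMN_2789562, chromosome 11, made for transcript variant 2). Of the control mice 3 were above all Nd2-mutant mice and mouse 37 was below all of them. The log2 difference was -0.25 (standard error 0.21), and it was -0.14 without control mouse 15 and -0.44 without control mouse 37, when the strains no longer overlapped. With array weights it was -0.05.

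**Figure D1:**
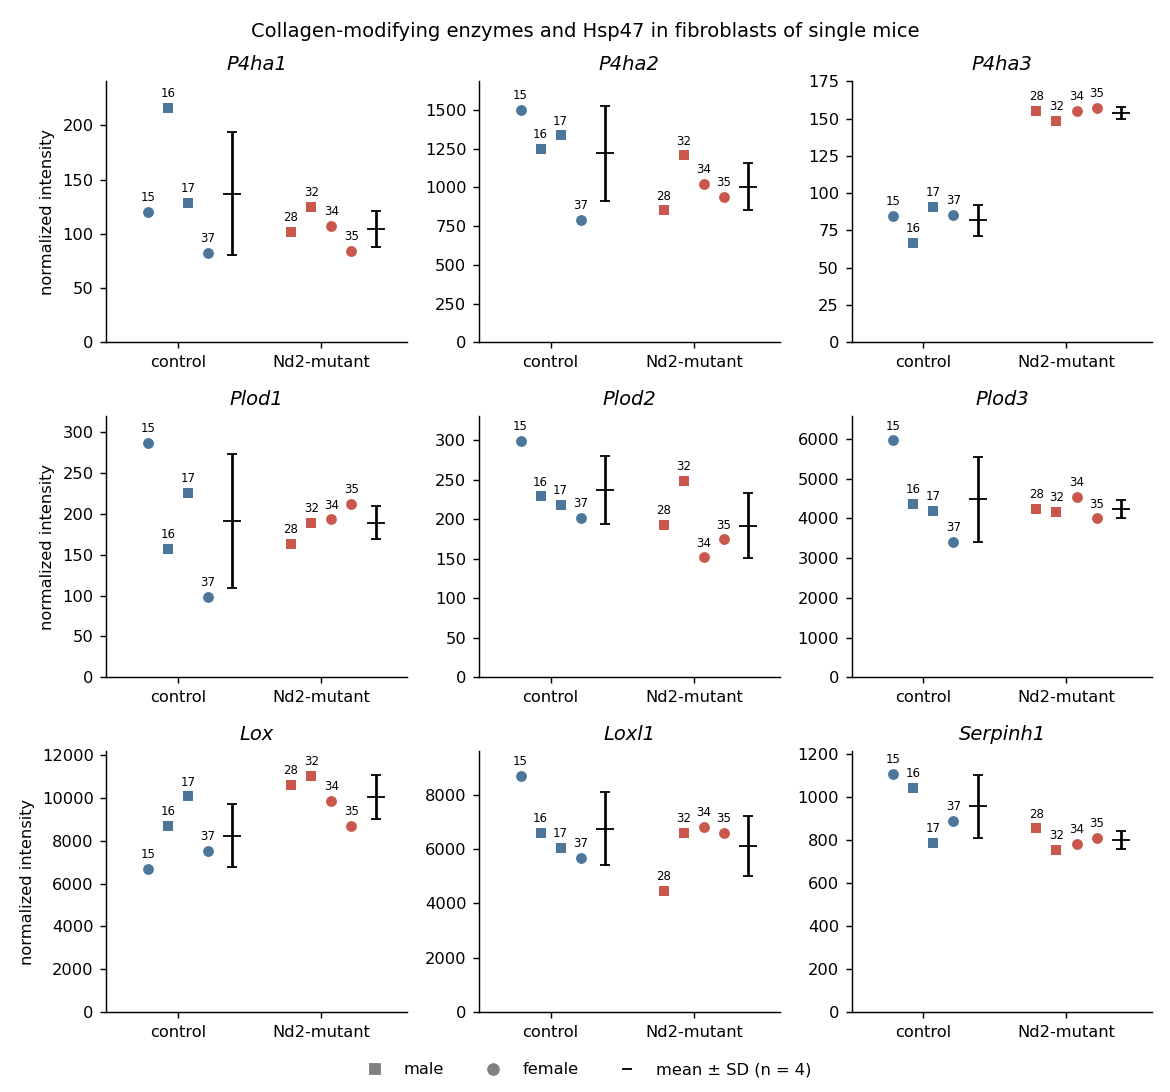
Intensity of each of the 9 member probes on the 8 arrays (linear axes, 1 panel per gene, each with its own scale). Points are mice, numbered, coloured by strain and shaped by sex, beside the mean ± SD of 4 mice, and P4ha3 is the panel in which the 4 Nd2-mutant mice, between 148 and 157, sit above the 4 control mice, between 66.7 and 90.8.

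The promoters of these 3 subunits are shown because P4ha1 and P4ha2 are known targets of hypoxia-inducible factors, which bind the core sequence ACGTG or GCGTG. The sequences are those of RefSeq on GRCm38.p6, the 250 bases before each gene's annotated start on its own strand, and the capitals mark each match of either core on either strand. No 2 of the matches shown overlap. Of the member genes, 6 were listed with a promoter (P4ha1, P4ha2, P4ha3, Plod1, Plod3 and Serpinh1). P4ha1 lies at chr10:59323046-59323295 (plus strand), P4ha2 at chr11:54100674-54100923 (plus strand) and P4ha3 at chr7:100285270-100285519 (plus strand).
P4ha1: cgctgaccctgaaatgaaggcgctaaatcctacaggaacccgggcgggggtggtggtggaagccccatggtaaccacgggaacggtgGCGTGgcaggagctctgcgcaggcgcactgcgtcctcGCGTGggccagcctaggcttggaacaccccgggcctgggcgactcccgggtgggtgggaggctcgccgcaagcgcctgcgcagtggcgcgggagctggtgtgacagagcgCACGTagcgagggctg
P4ha2: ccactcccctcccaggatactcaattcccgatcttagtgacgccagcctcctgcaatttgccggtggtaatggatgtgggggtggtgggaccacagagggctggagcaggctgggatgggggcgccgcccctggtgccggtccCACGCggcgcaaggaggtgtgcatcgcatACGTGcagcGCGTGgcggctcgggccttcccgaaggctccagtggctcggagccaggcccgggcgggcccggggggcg
P4ha3: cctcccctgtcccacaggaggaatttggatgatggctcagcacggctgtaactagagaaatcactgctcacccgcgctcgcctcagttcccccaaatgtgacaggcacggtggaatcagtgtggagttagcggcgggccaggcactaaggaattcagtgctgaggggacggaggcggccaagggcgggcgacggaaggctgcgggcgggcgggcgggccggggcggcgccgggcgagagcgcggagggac
The P4ha1 window held 3 matches, which begin 16, 126 and 163 bases before the start, and the P4ha2 window 3, at 69, 78 and 107 bases. Plod1 and Serpinh1 had 1 match each and Plod3 had 4. The P4ha3 window held none, which says only that these letters are not in it. Of 32851 RefSeq promoters of the same length, 12679, or 38.6%, hold a match, so that its presence is common. A match is a run of letters and was not tested for binding.

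None of the 3 lysyl hydroxylases separated the strains. Plod2, which hydroxylates the ends of the collagen chains where stable crosslinks start, had intensities of 193, 248, 152 and 174 in Nd2-mutant mice 28, 32, 34 and 35 (ILMN_2819929, chromosome 9) and 299, 229, 218 and 202 in control mice 15, 16, 17 and 37. Of the Nd2-mutant mice, 3 were below every control mouse, and mouse 32 was within the control range. The log2 difference was -0.29 (standard error 0.18), with -0.03 in males and -0.55 in females, and it was between -0.41 (without Nd2-mutant mouse 32) and -0.18 (without control mouse 15) with each mouse left out.

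Plod1, which hydroxylates lysines within the triple helix, varied most among the control mice. Its intensities were 163, 189, 193 and 212 in the Nd2-mutant and 287, 157, 226 and 98.2 in the control mice (ILMN_2681289, chromosome 4). The Nd2-mutant mice lay within the control range, whose ends were the females 15 and 37. The log2 difference of 0.07 (standard error 0.27) was 0.28 without control mouse 15 and -0.19 without control mouse 37. Plod3, which also has glycosyltransferase activity towards collagen, had intensities of 4239, 4164, 4540.3 and 3997 in the Nd2-mutant and 5965, 4358, 4179.5 and 3413 in the control mice (ILMN_2723058, chromosome 5). Again the Nd2-mutant mice lay inside the control range. The log2 difference was -0.05 (standard error 0.17), and it was 0.09 without control mouse 15 and -0.17 without control mouse 37.

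Lox and Loxl1 lay at the bright end of every array. Lox, the founding lysyl oxidase, had intensities of 10610.4, 11027, 9841 and 8693 in Nd2-mutant mice 28, 32, 34 and 35 (ILMN_2997494) and 6671, 8693, 10063 and 7517 in control mice 15, 16, 17 and 37, ranks 11 to 71 of all probes. In Nd2-mutant mice the values were higher on average but overlapped, and mouse 35 and control mouse 16 shared 1 value. Quantile normalization gave all arrays nearly the same set of values, with sorted values at most 0.147 apart between 2 arrays. An equal value thus marks an equal or nearly equal rank, and steps between ranks are wide at the bright end. The log2 difference was 0.30 (standard error 0.16), and 0.20 without control mouse 15, the lowest of the 8.

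Loxl1, which is needed for elastic fibres, had intensities of 4456, 6584, 6822 and 6584 in the Nd2-mutant and 8693, 6584, 6033 and 5683 in the control mice (ILMN_1255871, chromosome 9), ranks 38 to 142. Nd2-mutant mouse 28 was the lowest and control mouse 15 the highest. The log2 difference of -0.14 (standard error 0.19) was 0.00 without mouse 28, -0.02 without control mouse 15 and -0.22 without control mouse 37. For Loxl2, the only related probe was that of LOC100047339, a predicted gene described as similar to Loxl2, which lies outside the rule and was looked up after the values had been seen. Its intensity averaged 322 ± 102 over the Nd2-mutant mice and 383 ± 77.0 over the controls (SD, n = 4 each), with overlap, and it was not counted as Loxl2.

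Serpinh1, the collagen chaperone, had intensities of 853, 754, 783 and 809 in Nd2-mutant mice 28, 32, 34 and 35 (ILMN_2822850, chromosome 7) and 1105, 1042, 784 and 889 in control mice 15, 16, 17 and 37. Control mouse 17 was within the Nd2-mutant range and the other 3 control mice were above it. The log2 difference was -0.24 (standard error 0.15), and -0.33 without control mouse 17, when the strains no longer overlapped. The log2 SD of Serpinh1 was 0.07 in Nd2-mutant against 0.22 in control mice. This was not particular to it, as Plod3 had 0.08 against 0.33. Plod2, with 0.28 against 0.23, and Loxl1, with 0.29 against 0.27, went the other way.

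**Figure D2:**
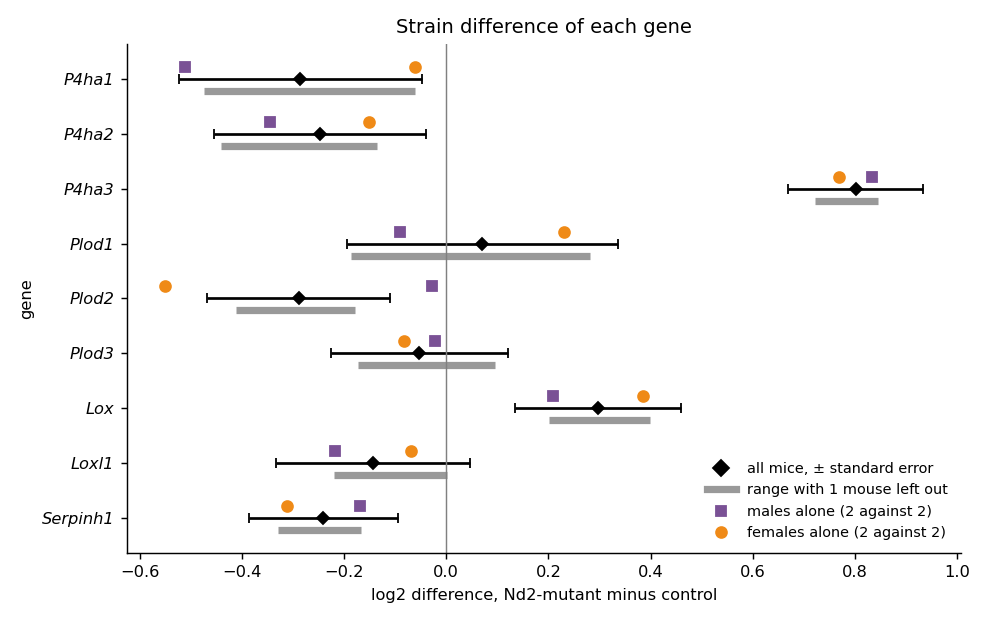
Log2 difference between Nd2-mutant and control mice of each member (diamond) with its standard error (thin bar), its range with 1 mouse left out (grey bar) and the difference in males alone and females alone, each of 2 mice against 2. P4ha3 is at 0.80 with 0.83 in males and 0.77 in females, and the other 8 members lie between -0.29 and 0.30.

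As a group the members did not move one way. Of 9, 6 were lower and 3 higher in Nd2-mutant mice, where 49.8% of all tested probes were lower. The median log2 difference was -0.14, against 0.00 over all tested probes, the middle 90% of which lay between -0.41 and 0.49. The members with negative differences were P4ha1, P4ha2, Plod2, Plod3, Loxl1 and Serpinh1, from -0.29 for P4ha1 and Plod2 to -0.05 for Plod3. The coefficient of variation over the 4 mice was between 2.47% and 21.5% in Nd2-mutant and between 12.8% and 42.7% in control mice.

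Control mice 15 and 37, both female, lay at the ends of the range for most members. Control mouse 15 had the highest value of the 8 for 6 of 9 members (P4ha2, Plod1, Plod2, Plod3, Loxl1 and Serpinh1) and the lowest for Lox, while over all tested probes it was highest for 26.5% and lowest for 31.4%. Control mouse 37 was the lowest for 4 members (P4ha1, P4ha2, Plod1 and Plod3) and for 9.25% of all tested probes. The mean deviation of the 9 members from their own mean was 0.23 on the log2 scale in mouse 15 and -0.31 in mouse 37, and between -0.08 and 0.10 in the other 6 mice. Mouse 15 also had the highest sums of the fibroblast, melanocyte, endothelial, smooth muscle and pericyte, and Schwann cell markers, with an intensity of 227 for the smooth muscle myosin Myh11, against 21.4 to 99.0 in the other 7 mice. Their part in the member values was not tested.

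**Figure D3:**
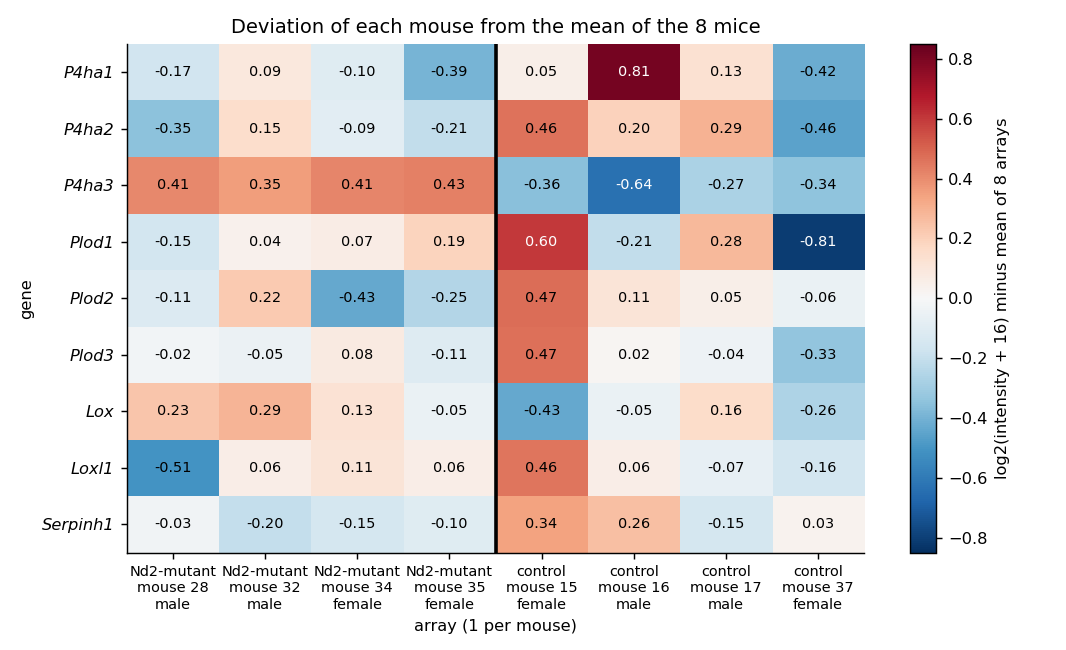
Deviation of each member (rows) on each array (columns) from the mean of its 8 log2 values, as colour. The P4ha3 row divides by strain, whereas the column of control mouse 15 is above the mean for 7 of the other 8 members and that of control mouse 37 below it for 7.

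Sex was balanced within strain and was not used to choose the genes, so that males and females could be tested, with strain as a term. With limma and adjustment over all tested probes, 0 of 9 members differed at an adjusted p under 0.05, where 0.0192% of the tested probes did. A probe detected in 1 sex only could not be among the tested probes, since each strain holds both sexes. At an unadjusted p under 0.05 limma gave 1 of 9, Lox, where 8.31% of the tested probes passed. The methods' t-test, which had no strain term, gave 0 of 9, where 7.9% passed. Lox was 10098 ± 1017 (SD, n = 4) in males and 8181 ± 1383 (SD, n = 4) in females, with overlap. The log2 difference of 0.31 (standard error 0.13, males minus females) had an unadjusted p of 0.0435 and an adjusted p of 0.582 in limma. Its exact permutation p was 0.0857, 2-sided and without regard to strain, where 4 mice against 4 cannot go below 0.0286. P4ha1 had a log2 difference of 0.44 (standard error 0.20, 95% interval from -0.02 to 0.89, adjusted p = 0.626 in limma), with 143 ± 50.3 (SD, n = 4) in males and 98.8 ± 18.3 (SD, n = 4) in females, and 0.25 without control mouse 16.

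The sexes of P4ha3 were close, with a log2 difference of -0.07 and a 95% interval from -0.37 to 0.23 (adjusted p = 0.903 in limma). For the remaining members the log2 differences were between -0.23 (Loxl1) and 0.15 (P4ha2). With array weights that of P4ha2 was 0.28 and that of Plod2, 0.13 without weights, was 0.44 (standard error 0.13, adjusted p = 0.0918 in limma), the lowest adjusted p of a member in any alternative run. Sexes overlapped in 9 of 9 members, and 5.16% of all tested probes did not overlap. The interaction of strain and sex asks whether the strain difference differed between males and females. It passed for 0 of 9 members, with all 9 adjusted p-values close to 1 in limma, where 0.0096% of the tested probes passed, and 0 of 9 were at an unadjusted p under 0.05, against 1.77%. The furthest values were 0.52 for Plod2 (standard error 0.35, unadjusted p = 0.166 in limma) and -0.45 for P4ha1 (standard error 0.41), and P4ha3 was at 0.07 (standard error 0.29). With 2 mice per strain and sex these standard errors allow sizeable differences of either sign.

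Other genes of collagen maturation were read from a list of 25 enzymes, chaperones and proteinases, of which 23 were on the array and 18 were tested. Of these, 9 were lower and 9 higher in Nd2-mutant mice, with a median log2 difference of 0.00. Crtap, a partner of prolyl 3-hydroxylase, was the only 1 of the 18 whose strains did not overlap, where 4.37% of all tested probes did not. It had a mean of 1409.7 ± 36.6 for the Nd2-mutant mice and 1155 ± 175 for the controls (SD, n = 4 each), a gap of 53.6 and a log2 difference of 0.30 (standard error 0.15), which was 0.19 without control mouse 16. At the ends of the list were Creb3l1, a transcription factor of procollagen genes, at 0.44 (standard error 0.21) and Pcolce2, an enhancer of procollagen cleavage, at -0.48 (standard error 0.25). P4hb, the subunit that the prolyl 4-hydroxylases share, was at -0.17 (standard error 0.14) and is named here after its value was seen. Between the sexes 0 of the 18 passed, with a lowest adjusted p of 0.649 in limma. At an unadjusted p under 0.05 in limma there were 0 of the 18, where 8.31% of all tested probes passed.

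The substrates were 8 genes of fibrillar collagens and elastin, all on the array, of which 7 were tested. There were 3 lower and 4 higher, with a median log2 difference of 0.06. Col5a2 was lower without overlap, 79.8 ± 9.45 against 96.7 ± 3.10 (SD, n = 4 each), but the nearest values of the strains were only 0.111 apart. It was the only 1 of the 7 without overlap, where 4.37% of all tested probes did not overlap. Col3a1 was the highest at 0.30 (standard error 0.27), and 0.04 without control mouse 16 and 0.16 without Nd2-mutant mouse 35. Eln, encoding elastin, was the lowest at -0.37 (standard error 0.46), and between -0.77 (without control mouse 17) and 0.10 (without control mouse 15) with each mouse left out. Its intensity was 106, 19.8, 4.04 and 35.3 in control mice 15, 16, 17 and 37, with detection on 3 of these 4 arrays. In Nd2-mutant mice 28, 32, 34 and 35 it was 11.1, 16.9, 18.0 and 37.3. Between the sexes 0 of the 7 passed, with a lowest adjusted p of 0.481 in limma. At an unadjusted p under 0.05 in limma there was 1 of the 7, Eln, where 8.31% of all tested probes passed. Its log2 difference, males minus females, was -1.04 (standard error 0.34, unadjusted p = 0.0129 and adjusted p = 0.481 in limma).

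Hypoxia-responsive genes outside the group were 18, all on the array, of which 13 were tested. Here 12 were higher and 1 was lower in Nd2-mutant mice, where 49.8% of all tested probes were lower. The median log2 difference was 0.27, against 0.00 over all tested probes. The list leaves out the members P4ha1, P4ha2, Plod2 and Lox, which also respond to hypoxia. Their log2 differences were -0.29, -0.25, -0.29 and 0.30. This list, like the others, was chosen with earlier results of these data known. Pdk1, a kinase that inhibits pyruvate dehydrogenase, was the highest of the list, with 215 ± 31.7 against 135 ± 45.4 (SD, n = 4 each). Its log2 difference was 0.65 (standard error 0.20). Aldoa, a glycolytic enzyme, was higher without overlap, with 3099 ± 398 against 2474 ± 156 (SD, n = 4 each), a gap of 43.6 and a log2 difference of 0.32 (standard error 0.14). It was the only 1 of the 13 without overlap, where 4.37% of all tested probes did not overlap. Vegfa, an angiogenic growth factor, was the 1 lower gene, at -0.37 (standard error 0.21), and -0.23 without Nd2-mutant mouse 35. The median of the list was 0.09 without control mouse 37, 0.14 without control mouse 15, 0.16 without Nd2-mutant mouse 34 and 0.17 with array weights. The mean deviation over the 13 genes was -0.31 in control mouse 37 and -0.20 in control mouse 15, against 0.00 to 0.16 in the other 6 mice. Between the sexes 0 of the 13 passed, with a lowest adjusted p of 0.348 in limma. At an unadjusted p under 0.05 in limma there were 3 of the 13, where 8.31% of all tested probes passed. The interaction of strain and sex passed for 0 genes of the 3 lists.

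**Figure D4:**
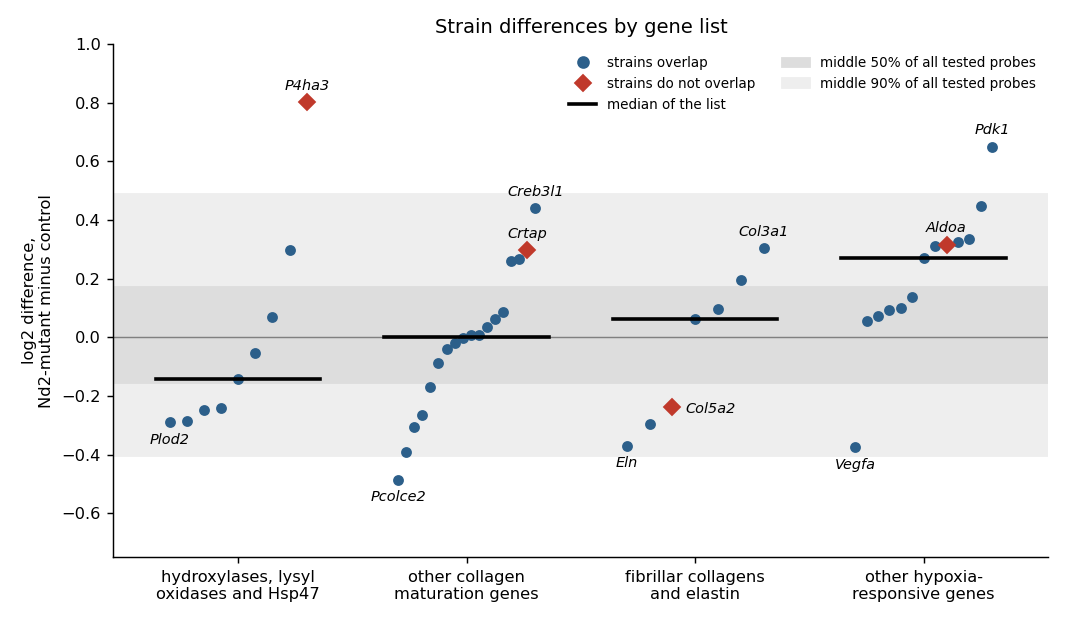
Log2 difference between Nd2-mutant and control mice of every tested gene (points) in the members and the 3 lists, with the median of each (line), diamonds for genes whose strains do not overlap, and bands for the middle 50% and, from -0.41 to 0.49, the middle 90% of all tested probes. The medians are -0.14 for the members, 0.00 for collagen maturation, 0.06 for the substrates and 0.27 for the hypoxia-responsive genes.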

How the data were processed

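The authors made labelled cRNA from total RNA, hybridised it to MouseRef-8 v2.0 arrays and deposited the intensity of each probe, extracted in GenomeStudio (version not given in the sources used here), quantile normalized and background-subtracted, with a detection p-value that the authors' software gave each probe. Both deposited tables, 2 in number, hold the same normalized values. Negative intensities were raised to 0, and differences were fitted on log2(intensity + 16). Probes detected at p under 0.01 on all 4 arrays of at least 1 strain were fitted with limma 3.58.1 (lmFit, eBayes, 2-sided) in R 4.3.3, with Benjamini-Hochberg adjustment over 10414 probes and a threshold of 0.05. Single probes were also compared between the sexes by exact permutation, without regard to strain. The limma fit of strain and sex was also run on simulated data with independent normal noise, and its outcome is not given here. Labels gave strain, sex and mouse number. They do not say that cultures were independent beyond the mouse.

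Members and lists were chosen with earlier results of these data known. Of each list, by the brightest probe of each gene, the extremes, the genes without overlap and those that passed between the sexes were named. Array symbols were matched through older names. Promoters came from RefSeq (GRCm38.p6). Alternatives were other added values, filters, scales, normalizations, array weights, a trend, covariates, the methods' t-test and leaving out each mouse.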

Additional observations from a re-analysis of the deposited data

Results flagged for a closer look

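Of 18 checks for a mouse lying apart from the others of its strain, 1 for each of the 9 members in each strain, 1 was positive, where chance gives about 0.9. It was Loxl1 in Nd2-mutant mouse 28, at an intensity of 4456 against 6584 to 6822 in the other 3 Nd2-mutant mice. The gap to the nearest mouse was 0.916 of the range of the 4 mice on the log2 scale, beyond Dixon's critical value. At the bright end of the array the normalized values are few, and 2 of these mice share the same value.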

How the results depend on the processing

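P4ha3 kept a positive difference between the strains in every alternative run, and it was 0.63 with 50 added before log2. As its strains did not overlap, leaving out mice, splitting by sex or changing the added value could not turn the sign. P4ha3 was also chosen by this contrast, so that nothing is read from its sign. Of 189 recomputed strain differences of the members, 7 changed sign, all of Plod1, Plod3 and Loxl1. Plod1 was -0.02 on linear intensities, -0.19 without control mouse 37 and -0.09 in males alone, Plod3 was 0.12 with array weights and 0.09 without control mouse 15, and Loxl1 was 0.02 with array weights and 0.00 without Nd2-mutant mouse 28. The count of members without overlap was between 1 and 2 with each mouse left out, with Plod2 added without Nd2-mutant mouse 32, Serpinh1 without control mouse 17 and P4ha2 without control mouse 37, as fewer mice overlap less: over all tested probes, 455 of 10414 did not overlap with all mice, and 897 of 10520, 1221 of 10480 and 912 of 10493 in these 3 runs. Between the strains, limma called 0 probes of the whole table (795 at an unadjusted p under 0.05), the methods' t-test called 1, and limma without a filter called 3.

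For sex and for its interaction with strain, 0 members passed in every alternative run. Array weights turned the sex difference of Plod1 to 0.0686 and gave Plod2 0.44 (adjusted p = 0.0918 in limma). With each mouse left out, the sex difference (males minus females, log2) was between -0.34 and 0.22 for Plod1, between -0.20 and 0.12 for Plod3, between -0.13 and 0.0353 for Serpinh1, between -0.14 and 0.0099 for P4ha3 and between -0.0564 and 0.31 for P4ha2. The interaction was between -0.46 and 0.16 for Loxl1, between -0.65 and 0.26 for P4ha2, between -0.34 and 0.46 for Plod3, between -0.0599 and 0.34 for Serpinh1, between -0.12 and 0.25 for P4ha3 and between -1.02 and 0.38 for Plod1. The causes were not tested.

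No paired analysis was possible because mouse numbers differ between the strains. Normexp was not run, since both tables hold normalized values, nor chip as a block, since no chip is named. Each member rests on 1 probe, and 4 mice per strain limit the precision.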

Other observations

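Neighbours of P4ha3 on chromosome 7 were looked at after its values had been seen. Of the 20 nearest tested genes, 10 on each side in RefSeq order, 0 were higher in Nd2-mutant mice without overlap between the strains and 2, Gdpd5 at -0.73 and Plekhb1 at -0.49 on the log2 scale, were lower without overlap, against 2.24% higher and 2.13% lower without overlap among all tested probes. Both had low intensities in Nd2-mutant against control mice (SD, n = 4 each). They were 25.5 ± 8.96 against 52.7 ± 14.4 for Gdpd5 and 10.6 ± 2.61 against 21.5 ± 6.76 for Plekhb1. Of the 20 genes, 7 had a positive and 13 a negative difference, with a median of -0.07 and a range from -0.73 to 0.17. Serpinh1, a member, is among them.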
